A study of Mus musculus with 35 samples.

Results

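The genes described here are 8 members of the LIF and BMP signalling routes, which mouse pluripotent cells depend on. They are the receptor genes Lifr and Il6st, the transcription factor gene Stat3 and its feedback gene Socs3 on the LIF side, and the ligand gene Bmp4 with the target genes Id1, Id2 and Id3 on the BMP side. They were chosen by name, 8 of 21627 protein-coding genes on chromosomes 1 to 19 and X, and the rule that takes them uses no measured value, although earlier results of these data were known when they were chosen. For each gene, the peaks over the gene and within 50 kb to either side of it (its window, GRCm38 coordinates) were taken from all 22 peak lists of the series. In these 8 windows lay 133 of the 106528 regions with H3K27ac, the histone acetylation found at active promoters and enhancers, and 73 of the 37138 regions bound by KLF4, a zinc-finger transcription factor. The cells were mouse embryonic fibroblasts (MEF) of C57BL/6 x 129 strain, as most labels give it, with a doxycycline-inducible OKSM cassette (Pou5f1, Klf4, Sox2, Myc) in the Col1a1 locus and the M2rtTA activator in the Rosa26 locus. MEF were kept in MEF medium without doxycycline and were not sorted. Reprogramming cells grew in ESC medium, which contains LIF, with doxycycline at 1 µg/ml and ascorbic acid at 50 µg/ml. They were unsorted at day 3 and sorted for SSEA1 at day 6 and day 9. The reference was the embryonic stem cell (ESC) line V6.5 on irradiated feeder cells in the same medium, without doxycycline, and for 2 KLF4 libraries with 2i, a MEK inhibitor at 1 µM and a GSK3 inhibitor at 3 µM. The 12 H3K27ac libraries comprised 3 each for day 3 and day 6 and 2 each for MEF, day 9 and ESC. The 10 KLF4 libraries comprised a pair for every reprogramming stage, for ESC and for ESC with 2i, and none for MEF. The OKSM cells make KLF4 from the cassette as well as from the Klf4 gene, and the KLF4 of either source cannot be told apart in these data.

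LIF binds a receptor made of the LIFR and gp130 (Il6st) chains, which activates JAK kinases. These phosphorylate STAT3, and STAT3 in turn switches on genes that hold mouse ESC in self-renewal and also Socs3, whose product shuts the receptor down. BMP4 signals through SMAD factors to the Id genes, whose proteins bind and block basic helix-loop-helix factors that drive differentiation, and serum supplies BMP activity in ESC culture. Klf4 is itself a known target of LIF and STAT3 in ESC.

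The lists differed in length, and depth is unknown. H3K27ac lists held 17493 to 88347 peaks covering 9.21 to 83.5 Mb, fewest at day 6 and most in MEF, and KLF4 lists held 21129 to 34640 peaks covering 4.45 to 15.2 Mb. A missing peak does not show missing signal. A peak's fold is the authors' value within its own list. Folds of several lists are set side by side below as descriptions, with the rank of the region's best peak by p-value in its own list for H3K27ac. Neither a fold nor a rank shows a change between stages, since lists differ in length and scale. MEF and ESC H3K27ac came only from batch DG-3458 of the labels and day 9 only from batch EA-3702, while day 3 and day 6 had libraries of both. For KLF4, 1 ESC library is of batch EA-2697 and the other of EA-2643, and neither batch holds a KLF4 library of another stage, so that in any comparison of KLF4 between ESC and another stage, or class of KLF4 regions by ESC, batch and stage cannot be told apart. The peak names inside the files exchange the numbers of the 2 day 6 H3K27ac libraries of batch DG-3458, and the peak names of the 2i library of batch EA-3702 say ESC without 2i. Of 5 fibroblast marker genes (Col1a1, Col1a2, Thy1, Twist1, Prrx1), 5 had an H3K27ac peak within 2.5 kb in each MEF and day 3 library, 3 in each day 6 and day 9 library and 2 to 3 in ESC. Of 5 pluripotency genes (Nanog, Sox2, Zfp42, Esrrb, Dppa3), 2 had one in MEF, 0 to 1 at day 3 and day 6, 4 at day 9 and 5 in ESC. The ESC were grown on feeder cells, which are fibroblasts, and the labels do not say whether these were removed. In such mixed cultures, fewer cells with a mark and less of it per cell cannot be told apart.

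The promoter sequences over which KLF4 regions lay are shown because they hold the places where the factor was found closest to a gene start. RefSeq starts (GRCm38.p6) were matched for 7 of the 8 genes, all but Id1, and the 250 bases before the start carried a KLF4 region at 5 of them: Lifr, Stat3, Socs3, Id2 and Id3. Capitals mark matches, on either strand, to GGGNGTG (a KLF core), TTCNNNGAA (a STAT site) and GGCGCC (an element known from SMAD1/5 targets), where N is any base. Before all RefSeq starts in the table, 26.1%, 7.02% and 9.59% of 32851 stretches of this length held a match. The Id3 and Id2 promoters are given whole (chr4:136143572-136143821, plus strand, and chr12:25096093-25096342, minus strand), and the Stat3 promoter as far as it lies outside the annotated gene (chr11:100939595-100939790, minus strand).
Id3: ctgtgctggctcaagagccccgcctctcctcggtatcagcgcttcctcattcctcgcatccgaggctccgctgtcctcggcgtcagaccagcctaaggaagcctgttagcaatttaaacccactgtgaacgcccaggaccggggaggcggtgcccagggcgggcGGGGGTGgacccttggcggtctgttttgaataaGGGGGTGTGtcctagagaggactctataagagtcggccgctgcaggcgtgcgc
Id2: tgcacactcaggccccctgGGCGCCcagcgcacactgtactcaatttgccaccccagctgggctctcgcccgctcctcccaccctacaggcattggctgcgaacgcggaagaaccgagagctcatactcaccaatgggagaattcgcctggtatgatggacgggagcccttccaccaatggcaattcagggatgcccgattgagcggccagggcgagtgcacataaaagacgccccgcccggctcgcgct
Stat3: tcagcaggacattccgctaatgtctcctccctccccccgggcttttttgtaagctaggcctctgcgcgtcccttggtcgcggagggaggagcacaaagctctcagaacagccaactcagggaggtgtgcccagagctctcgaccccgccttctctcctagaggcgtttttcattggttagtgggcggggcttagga
The Socs3 and Lifr starts used lie inside the annotated genes, and short stretches around the matches are given (Socs3 chr11:117969502-117969530 and chr11:117969412-117969437, minus strand; Lifr chr15:7129368-7129393 and chr15:7129537-7129562, plus strand).
Socs3, STAT match: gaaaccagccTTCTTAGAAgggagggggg
Socs3, GGCGCC match: ggccaaggctGGCGCCgcgcccgccg
Lifr, first GGCGCC match: cacctccctgGGCGCCgggcccgcgc
Lifr, second GGCGCC match: gctcctcgcaGGCGCCgcctccgggc
Id3 held 3 matches to the KLF core, of which 2 overlap, and no other promoter of the 5 held one. Socs3 held the only STAT match. A match is a string of letters and not a measured binding site, and a promoter without one may still be bound.

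Between MEF and ESC the 8 genes did not move as a group: H3K27ac coverage rose at Lifr, fell at Il6st, Stat3, Bmp4, Id1 and Id3, and did not pass the test at Socs3 and Id2. Coverage is the length in kb under H3K27ac peaks in the window, and the test was limma on log2 of that length plus 1 kb, with Benjamini-Hochberg adjustment over 19774 windows and an adjusted p under 0.05 as the threshold. The 1 member higher and 5 lower in ESC stand beside 26.8% of all windows called higher and 32.8% called lower, and the median difference was -0.87 for the 8 members and -0.10 for all windows (log2). All 4 libraries of this comparison were of batch DG-3458. With every library centred on its own median, 8545 windows were higher and 5994 lower in place of 5299 and 6491, and the 6 called members kept their direction and call. At day 3 against MEF, 6 members were lower and 0 higher, where 67.2% of all windows were lower and 1.82% higher and the median window lay at -0.87. At day 6 against day 3, 7 members were lower and 0 higher, where 40.7% of windows were lower and 0.278% higher and the median was -0.45. At day 9 against day 6, 6 members were higher and 0 lower, where 87.4% of windows were higher and 0% lower and the median was 1.20. In ESC against day 9, 3 members were higher and 1 lower, beside 28.5% and 16.5% of windows and a median of 0.11. These stages share no batch. With batch as a block, 9986 windows were higher and 1913 lower in place of 5634 and 3259, 5 members were called, and the median was 0.53. The block moved the median at day 9 against day 6 to 0.89 and at day 3 against MEF to -1.02. After centring, the windows higher and lower numbered 8457 and 4508 at day 3 against MEF (360 and 13297 without), 7209 and 4283 at day 6 against day 3 (55 and 8048), and 3354 and 6908 at day 9 against day 6 (17283 and 0). With lists of equal length, 2806 were higher and 5103 lower in ESC against day 9. The differences between the members' shares and those of all windows were not tested, and 8 genes chosen by name are few. Each gene is described below with its own values and its distance from the medians without the block.

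**Figure D1:**
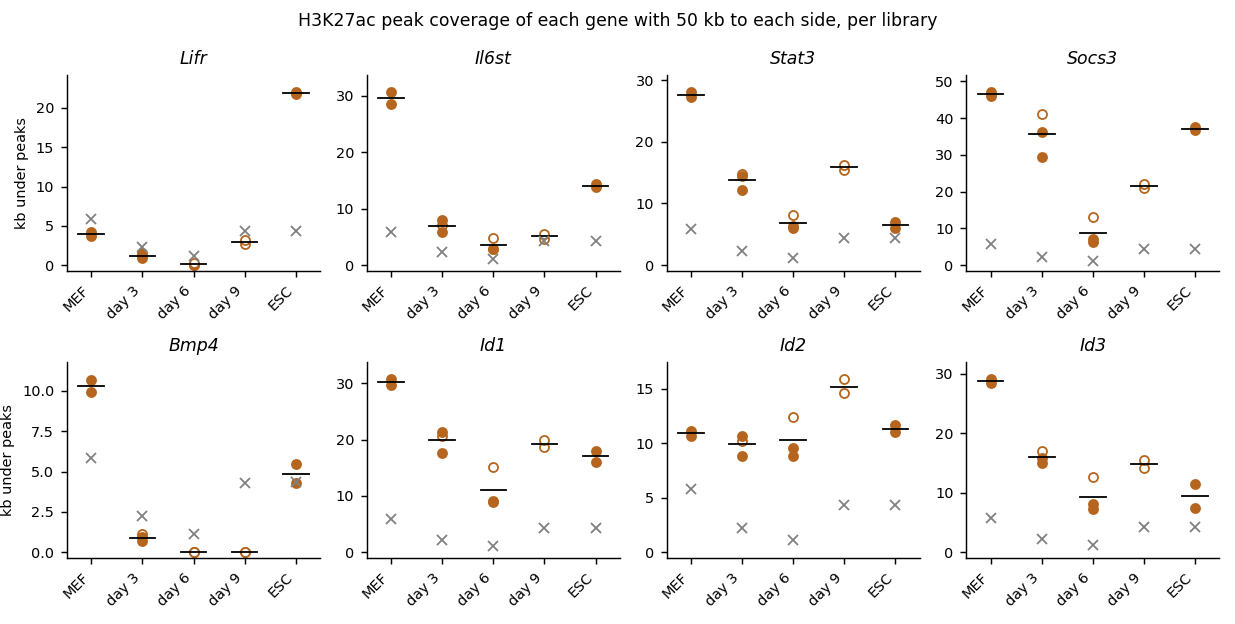
Length under H3K27ac peaks (kb, y axis) in the window of each gene at 5 stages (x axis). Circles are single libraries, open for batch EA-3702 and filled for batch DG-3458, black lines are stage means, and grey crosses are the stage mean over the libraries of their median over all windows. Lifr stands at 21.8 and 22 kb in ESC against at most 4.2 kb in any other library, and Bmp4 is at 0 kb in all day 6 and day 9 libraries.

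**Figure D2:**
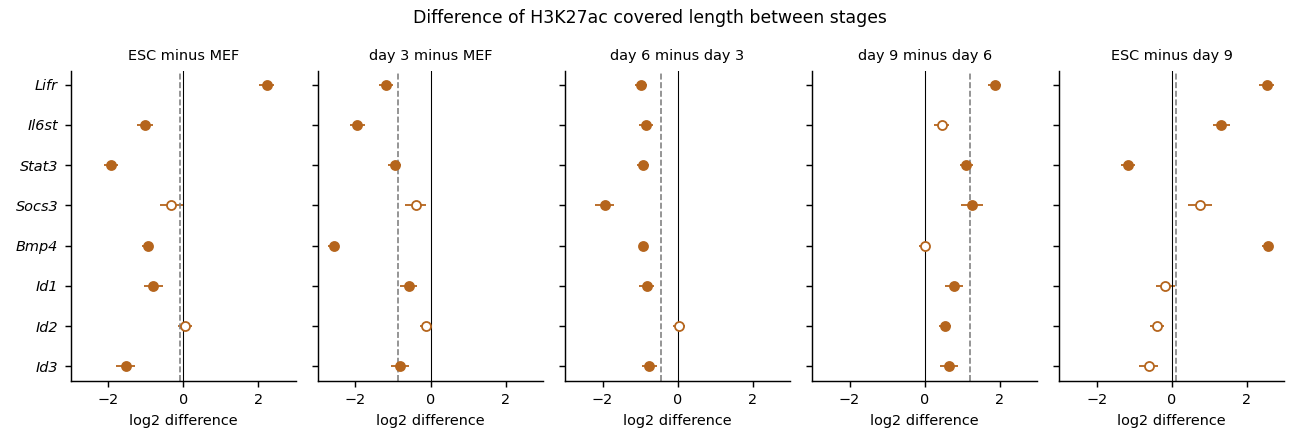
Log2 difference of H3K27ac covered length (x axis, with standard error) for the 8 genes in 5 comparisons of stages. Filled points passed an adjusted p of 0.05 over all windows, open points did not, and the dashed line is the median of all windows. Members fall on both sides of the dashed line in each panel, and Lifr lies farthest to the right in ESC against MEF, at 2.22.

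Lifr, which codes for the ligand-binding chain of the LIF receptor, gained the most acetylation among the 8 from MEF to ESC. Its window held 4.2 and 3.68 kb under H3K27ac peaks in MEF, 0.893, 1.13 and 1.5 kb at day 3, 0, 0 and 0.309 kb at day 6, 2.74 and 3.22 kb at day 9, and 21.8 and 22 kb in ESC. Both ESC libraries lay far above the other 10, and the day 6 libraries were lowest. The difference between ESC and MEF was 2.22 ± 0.20 (log2 ± SE, limma adjusted p = 5.17e-06), and that between ESC and day 9 was 2.53 ± 0.20 (limma adjusted p = 3.19e-06), or 2.71 with batch as a block. With equally long lists the first was 3.69. At day 3 against MEF the log2 difference was -1.19, which is -0.32 relative to the median window, and it was -0.10 (limma adjusted p = 0.612) after centring and 0.38 (limma adjusted p = 0.0881) with equally long lists, so the early fall is not separate from the shorter lists. From day 6 to day 9 it rose by 1.86 on the log2 scale, 0.66 above the median window, a value that rests on day 6 libraries near 0 and thus on the 1 kb added.

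The ESC acetylation of Lifr came in clusters. Of its 17 H3K27ac regions, 13 were present in ESC (a peak in at least 2 libraries, 45.8% of all regions), 9 were found in ESC alone (21.8% of all), and 0 were present at all 5 stages (9.02% of all). The widest, chr15:7113289-7121070 with 7782 bp, is centred 12.4 kb before the start inside the annotated gene. It had no peak in MEF or day 6, a peak in 2 of 3 libraries at day 3 and 1 of 2 at day 9, and both libraries in ESC, where the strongest peak was 30.3-fold and 32.4-fold enriched by the authors' values and the best peak in the top 1.14% and 0.554% of its list. The day 3 peaks, at 2.99-fold and 3.58-fold, were in the top 70.4% and 65.8%. They did not overlap each other, at -11.052 to -10.743 kb from the start in library DG-3458-1 and -13.289 to -13.027 kb in DG-3458-2. Upstream of the gene, chr15:7078861-7082632 was acetylated in both ESC libraries and in no other. The promoter region chr15:7128448-7130420 had a peak in 2 of 2 MEF, 3 of 3 day 3, 0 of 3 day 6, 1 of 2 day 9 and 2 of 2 ESC libraries, with 4.64-fold and 6.3-fold peaks in MEF (top 46.8% and 37.6% of their lists) and 18.2-fold and 16.4-fold peaks in ESC (top 5.14% and 5.42%). The region chr15:7055961-7056999, more than 30 kb upstream of the annotated gene, was present in both day 9 libraries, had a 2.65-fold peak in 1 of 3 day 6 libraries, and had none in MEF, day 3 or ESC.

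KLF4 was bound near Lifr both early and late. A pair of regions side by side, chr15:7056153-7056496 and chr15:7056723-7057184, was bound in both day 3 libraries and lay at the day 9 acetylation just named. The first was also bound in both ESC libraries, the second in 1. Inside the large ESC cluster lay 4 regions between chr15:7115403-7115753 and chr15:7118072-7118362, and none of these had a KLF4 peak at day 3, day 6 or day 9. Of those 4, 3 were found in both 2i libraries and 1 of 2 ESC libraries, and the fourth, chr15:7115825-7116037, in both ESC libraries and neither 2i library. In all, 6 of the 9 KLF4 regions of Lifr were present in ESC or 2i and absent at the 3 earlier times, where 16.6% of all KLF4 regions were. The promoter region chr15:7129007-7130021 was bound at day 3, in ESC and in 2i by 2 libraries each and at day 6 and day 9 by 1 each. It lay over the 2 GGCGCC stretches printed above.

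**Figure D3:**
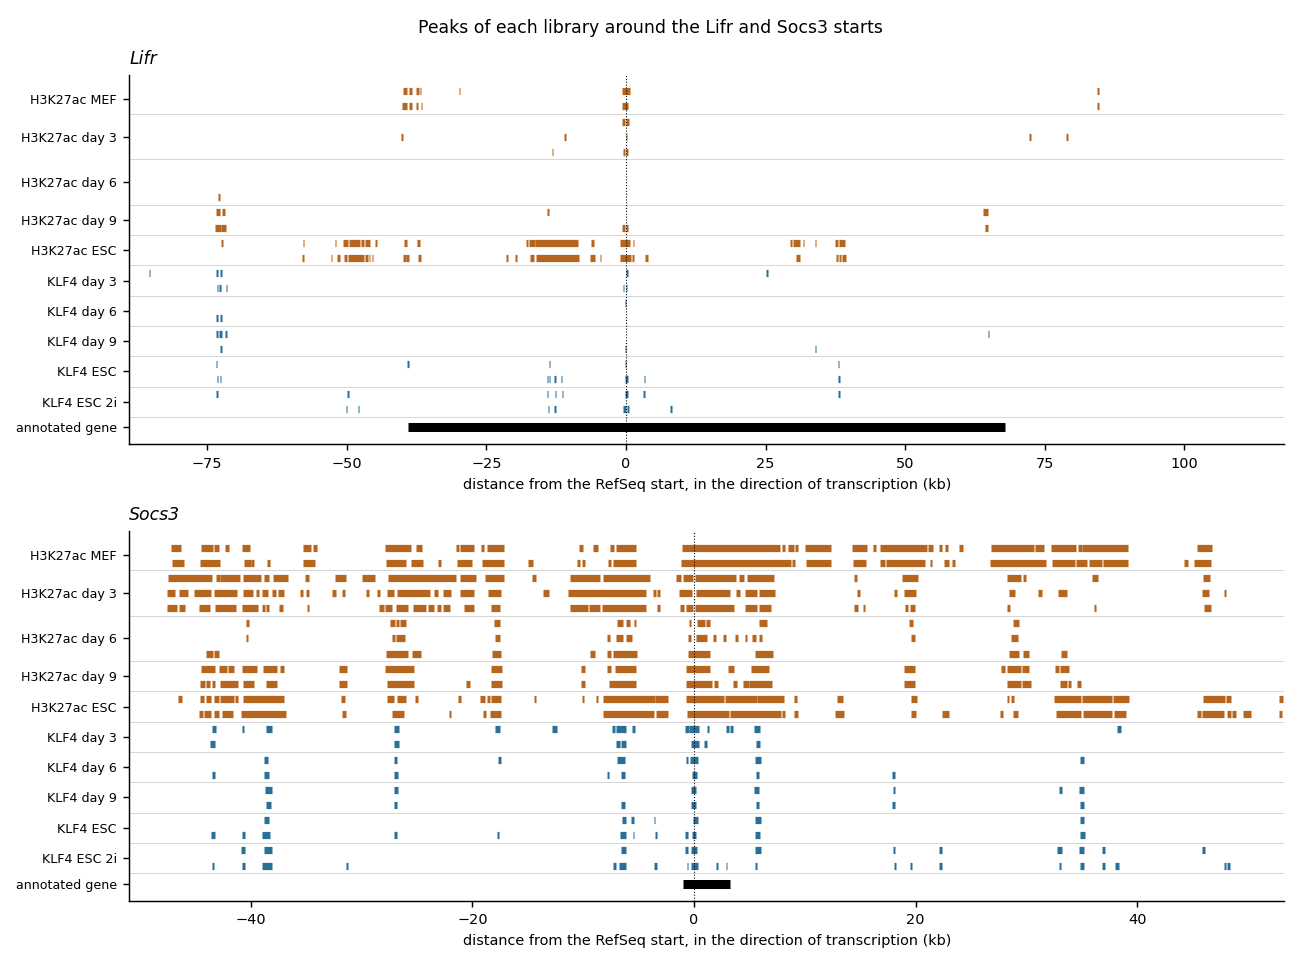
Single peaks of every library (1 row per library, rows grouped by mark and stage on the y axis) against distance in kb from the first RefSeq start in the direction of transcription (x axis), for Lifr above and Socs3 below. Orange bars are H3K27ac peaks, blue bars KLF4 peaks, and the black bar is the annotated gene. At Lifr the acetylated cluster before the start is filled in the 2 ESC rows with KLF4 peaks under it in ESC and 2i, while at Socs3 both marks are found at every stage.

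Il6st codes for gp130, the signalling chain that LIF shares with other cytokines of the IL-6 family, and it lost part of its fibroblast acetylation. Its window held 28.6 and 30.7 kb under H3K27ac peaks in MEF, 5.82, 7.15 and 7.99 kb at day 3, 2.85, 2.91 and 4.83 kb at day 6, 4.7 and 5.47 kb at day 9, and 14.4 and 13.8 kb in ESC. ESC lay between MEF and all reprogramming libraries, with no overlap. The log2 difference was -1.02 ± 0.22 between ESC and MEF (limma adjusted p = 0.00269), -1.95 ± 0.20 between day 3 and MEF (limma adjusted p = 2.14e-05; -1.08 relative to the median window), and 1.32 ± 0.22 between ESC and day 9 (limma adjusted p = 0.00087; 1.64 with batch as a block, 0.83 with 10 kb to each side). The second value was -0.86 after centring. The rise from day 6 to day 9 did not pass the test (0.45 ± 0.20, limma adjusted p = 0.0599), where the median window rose by 1.20.

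Of 16 H3K27ac regions of Il6st, 8 were present in MEF and absent in ESC (39.4% of all regions) and 4 the reverse (29.6% of all), which is near these shares. The fibroblast set included chr13:112442059-112448530, 6472 bp wide, with 20.1-fold and 20.9-fold peaks in MEF (top 4.74% and 4.25%), 2.99-fold to 3.36-fold peaks at day 3 (top 45.9% to 77.4%) and none later. Just 2 regions were present at all 5 stages, the promoter region chr13:112462597-112467901 and the region chr13:112438034-112441529 about 24.3 kb upstream. The upstream region was in the top 21.4% and 26.5% of peaks in MEF (10.6-fold and 8.41-fold), the top 9.88% to 20.7% at day 6 and the top 2.68% and 2.21% in ESC (20.2-fold and 21.3-fold). The 2 KLF4 regions bound at day 3, day 6 and day 9 both fell in it. The stronger, chr13:112439825-112440688, had a peak in all 10 KLF4 libraries, with 13-fold and 14.7-fold peaks at day 3, folds of 19.4 and 21.7 at day 6, 14.2 and 15.4 at day 9, 8.51 and 4.64 for ESC, and 14.1 and 7.92 with 2i. Its neighbour, chr13:112438933-112439623, was found in both libraries of day 3, day 6, day 9 and ESC but in neither 2i library. The 250 bases before the Il6st start had a KLF4 peak in at most 1 of 2 libraries at any stage.

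Stat3, the transcription factor that carries the LIF signal to the nucleus, had less acetylation around it in ESC than in MEF. Its window held 28.1 and 27.2 kb under H3K27ac peaks in MEF, 12.1, 14.5 and 14.8 kb at day 3, 6.07, 6.39 and 8.11 kb at day 6, 15.5 and 16.3 kb at day 9, and 7.05 and 6.01 kb in ESC. The ESC and day 6 libraries overlapped, and no other stages did. The log2 difference was -1.93 ± 0.18 between ESC and MEF (limma adjusted p = 7.36e-06) and -1.17 ± 0.18 between ESC and day 9 (limma adjusted p = 0.00051). Both values depend on the width of the window. With 10 kb in place of 50 kb to each side they were -0.60 (limma adjusted p = 0.0106) and -0.05 (limma adjusted p = 0.869), and with equally long lists the second was -1.90. The changes at day 3, day 6 and day 9 (-0.95, -0.92 and 1.11) lay -0.08, -0.47 and -0.09 from the median window, and after centring those at day 3 and day 9 turned to 0.14 and -0.24 and did not pass the test.

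The window of Stat3 also holds Stat5b, Stat5a and Cavin1, and much of its acetylation lay there. The widest region, chr11:100958968-100972230 with 13263 bp, overlaps Cavin1, a gene for a coat protein of caveolae. It was present at all stages, in the top 0.763% and 0.641% of peaks in MEF (47.4-fold and 47.2-fold), 6.7% and 7.21% at day 9 (20.7-fold and 21.4-fold) and 36.1% and 35% in ESC (4.63-fold and 5.2-fold). The region at the start of Stat3 itself, chr11:100937764-100939639, was present at all 5 stages, in the top 0.131% and 0.0804% of peaks in MEF (58.6-fold and 61.7-fold), 10.2% to 38.7% at day 6 (4.11-fold to 8.81-fold) and 2.29% and 2.69% in ESC (27.3-fold and 22.1-fold). Over the Stat3 start, the KLF4 region chr11:100938711-100940028 was bound in 2 of 2 libraries at day 3, day 6, day 9 and ESC and in neither 2i library. Its folds were 7.73 and 6.66 at day 3, 13.3 and 4.82 at day 6, 5.91 and 6.31 at day 9 and 3.28 and 2.62 in ESC. Of 9 KLF4 regions, 7 were present at day 3, 5 at day 6, 4 at day 9 and 3 each in ESC and 2i (48.1%, 40.2%, 51.5%, 43.4% and 40.5% of all KLF4 regions), and 6 overlapped a gene other than Stat3.

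Socs3, the feedback inhibitor of the receptor and a direct STAT3 target, had the greatest acetylated length of the 8 windows in MEF and in ESC, with much less of it at day 6. Its window held 45.9 and 47.1 kb under H3K27ac peaks in MEF, 29.4, 36.2 and 41.1 kb at day 3, 6.41, 6.98 and 13.2 kb at day 6, 21.1 and 22.1 kb at day 9, and 37.6 and 36.7 kb in ESC. The MEF libraries covered 44.6% of the window on average and those of ESC 35.6%. ESC did not differ from MEF by the test (-0.32 ± 0.31, limma adjusted p = 0.404), nor did day 3 (-0.39 ± 0.28, limma adjusted p = 0.244), and these intervals are wide. All ESC and day 3 libraries nevertheless lay below both MEF libraries. The SE is from a spread pooled over all stages, which includes day 6 at 6.41 to 13.2 kb. The day 3 difference lay 0.48 above the median window and passed the test after centring. The drop from day 3 to day 6 was -1.94 ± 0.25 (limma adjusted p = 0.000353), which is -1.49 relative to the median window, the largest such drop among the 8. The rise from day 6 to day 9 was 1.26 ± 0.28 (limma adjusted p = 0.0019), or 0.86 with batch as a block and -0.09 after centring.

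Of 22 H3K27ac regions of Socs3, 7 were present at all 5 stages (9.02% of all regions), the most of any of the 8 genes. The region over the gene, chr11:117960003-117971016 with 11014 bp, was in the top 0.204% and 0.205% of peaks in MEF (57.6-fold and 57.4-fold), 3.86% to 7.56% at day 3 (9.65-fold to 14.3-fold), 10.9% to 35.6% at day 6 (5.23-fold to 8.02-fold) and 3.93% and 3.7% in ESC (22.3-fold and 21.6-fold). Of the 22 regions, 8 overlapped the neighbouring gene Pgs1. Socs3 also had the most KLF4 regions, 16, of which 11 were present in 2i and 7 in ESC (40.5% and 43.4% of all KLF4 regions). The promoter region chr11:117968878-117969783, which covers the STAT match printed above, was bound in all 10 libraries with folds from 3.26 to 10.9. The region chr11:117963345-117963948, 5.7 kb past the start, was bound in all 10 as well. A further 4 regions were bound in both 2i libraries and in neither ESC library, among them chr11:117946946-117947279 and chr11:117932256-117932561, which had no peak at day 3, day 6 or day 9 either.

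Bmp4, the BMP ligand gene, was the only member with no H3K27ac peak in its window at day 6 and day 9. The window held 9.91 and 10.7 kb under peaks in MEF, 1.11, 0.922 and 0.675 kb at day 3, 0 kb in all 3 day 6 libraries and both day 9 libraries, and 5.46 and 4.28 kb in ESC. Both end points thus lay above every reprogramming library. The log2 difference was -0.95 ± 0.15 between ESC and MEF (limma adjusted p = 0.000318), -2.58 ± 0.14 between day 3 and MEF (limma adjusted p = 1.51e-07; -1.71 relative to the median window) and 2.55 ± 0.15 between ESC and day 9 (limma adjusted p = 2.60e-07). The first was -2.72 with equally long lists and -1.68 with peaks at a q-value of at most 0.01, and the second -1.48 after centring. The size of the last value is set by the 1 kb added, since day 9 is at 0. With equally long lists the difference was 0.00 (limma adjusted p = 1). The median window at day 9 held 4.31 kb.

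The gene itself was acetylated at both ends of the course. The region over Bmp4, chr14:46384774-46390243, had 11.6-fold and 14.5-fold peaks in MEF (top 19.3% and 14.5%), 2.06-fold to 3.99-fold peaks at day 3 (top 39% to 96.9%), none at day 6 or day 9 and 6.18-fold and 4.64-fold peaks in ESC (top 28% and 44.2%). Of the other 9 regions, 5 were present in MEF and absent in ESC (39.4% of all regions), and 4 were found in ESC alone (21.8% of all). Around it, 3 of 4 KLF4 regions were present in ESC or 2i and absent at day 3, day 6 and day 9 (16.6% of all KLF4 regions), and none was present at any of these times. These include chr14:46380404-46380723, 2.8 kb beyond the 3′ end of the gene, with a peak in 1 of 2 ESC and both 2i libraries. An acetylated region of ESC alone, chr14:46380178-46380673, overlaps it.

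Around Id1 and Id3 the acetylated length fell from MEF to day 3 and on to day 6. After centring, the first step turned direction and the second did not pass the test. Around Id2 no difference passed the test before day 9 with the settings given above. After centring, Id2 was called at day 3 against MEF, where it lay 0.74 above the median window. Around Id1, the H3K27ac length was 29.7 and 30.7 kb in MEF, 17.7, 20.7 and 21.3 kb at day 3, 8.92, 9.14 and 15.2 kb at day 6, 18.6 and 19.9 kb at day 9, and 17.9 and 16 kb in ESC. Around Id2 it was 11.1 and 10.7 kb in MEF, 8.84, 10.2 and 10.7 kb at day 3, 8.83, 9.59 and 12.4 kb at day 6, 14.6 and 15.9 kb at day 9, and 11 and 11.7 kb in ESC. Around Id3 it was 29.1 and 28.5 kb in MEF, 15, 15.9 and 17 kb at day 3, 7.25, 8.08 and 12.6 kb at day 6, 14.1 and 15.6 kb at day 9, and 11.5 and 7.48 kb in ESC. Id1 and Id3 were highest in MEF without overlap, while Id2 spanned a narrow range whose highest libraries were those of day 9.

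Id3 fell by 1.54 ± 0.26 on the log2 scale from MEF to ESC (limma adjusted p = 0.00051). Id1 fell by 0.80 ± 0.25 (limma adjusted p = 0.0184), a call that was lost when any 1 of the 4 libraries was left out (limma adjusted p = 0.0562 to 0.107). The Id1 value was -1.73 (limma adjusted p = 0.0002) with 10 kb to each side, -1.56 (limma adjusted p = 0.000785) with equally long lists and -0.48 (limma adjusted p = 0.00242) after centring. Id2 did not pass the test (0.05 ± 0.19, limma adjusted p = 0.835). Between day 3 and day 6, when the median window fell, Id2 stood at 0.04 ± 0.15 (limma adjusted p = 0.946). From day 6 to day 9 the log2 differences of 0.78, 0.54 and 0.66 for Id1, Id2 and Id3 passed the test but lay -0.42, -0.66 and -0.55 from the median window, and after centring they turned to falls that passed the test (-0.57, -0.82 and -0.70, limma adjusted p = 0.000612, 0.000113 and 0.00038). The early falls of Id1 (-0.58) and Id3 (-0.81), day 3 against MEF, turned after centring to a rise that passed the test for Id1 (0.51, limma adjusted p = 0.000965) and to 0.28 for Id3 (limma adjusted p = 0.0779). With 10 kb to each side they were -0.23 and -0.26 (limma adjusted p = 0.414 and 0.373). With equally long lists they were -0.22 and -0.63 (limma adjusted p = 0.476 and 0.0755). The next step, day 6 against day 3, was -0.82 for Id1 and -0.75 for Id3 (limma adjusted p = 0.00966 and 0.018), and -0.20 and -0.13 after centring (limma adjusted p = 0.107 and 0.366). The call of the early fall of Id1 was lost without any 1 of the MEF, day 3, day 9 or ESC libraries, while its size stayed at -0.50 to -0.63. Without 1 day 3 library the limma adjusted p was 0.0552 to 0.11. The call of Id3 was lost without either MEF library, with sizes of -0.80 and -0.83.

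Each Id gene sat in 1 broad acetylated region present at all 5 stages. The one over Id1, chr2:152733493-152742672, was in the top 0.783% and 1.23% of peaks in MEF (46.5-fold and 41.7-fold), 0.597% to 3.39% at day 6 (10.8-fold to 19.3-fold), 8.77% and 6.27% at day 9 (18.1-fold and 22.2-fold) and 42.8% and 76.8% in ESC (4.7-fold and 3.21-fold). The one over Id2, chr12:25092152-25102498, was in the top 0.521% to 3.19% at day 6, 2.26% and 1.81% at day 9 (30.4-fold and 35.0-fold) and 20.6% and 22.7% in ESC (8.2-fold and 7.33-fold). The one over Id3, chr4:136137538-136149431 with 11894 bp, was in the top 0.481% and 0.916% in MEF (45.7-fold and 36.6-fold) and 5.5% and 7.47% in ESC (18.3-fold and 15.1-fold). Of the 23 regions in the Id1 window, 17 overlapped another gene (H13, Mcts2, Cox4i2 or Bcl2l1). Those found in ESC alone numbered 5 of the 23, which is near the share of all regions (21.8%). Of these 5, 4 lay over Bcl2l1, an anti-apoptotic gene. A second Id2 region, chr12:25123352-25127216 about 29.2 kb upstream, had a peak in 1 of 2 MEF libraries and in every library from day 3 on, with folds of 24.6 and 29.8 at day 9 (top 4.5% and 3.21%).

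KLF4 was bound next to each Id gene from day 3. Around Id1, 5 of 11 KLF4 regions were present at all 5 stages (11.3% of all KLF4 regions), and they include the flanking regions chr2:152734718-152735371, 0.879 kb on 1 side of the gene, and chr2:152739015-152740040, 1.6 kb on the other. The second had 11.4-fold and 9.85-fold peaks at day 3, folds of 14.2 and 8.42 at day 6, 9.32 and 9.41 at day 9, 5.49 and 3.81 for ESC, and 5.13 and 5.22 with 2i. Between them, the region over the gene, chr2:152735900-152736730, was bound at day 3 (4.12-fold and 2.4-fold) and day 6 (4.68-fold and 2.59-fold) and in 0 of the 6 later libraries. At Id3 the regions chr4:136135001-136135747 and chr4:136144591-136145578 were likewise bound at day 3 and in no library of day 9, ESC or 2i. The Id3 promoter region chr4:136143387-136144171, which holds the 3 KLF cores printed above, was bound in both libraries at day 3, day 6, day 9 and in 2i and in 1 of 2 in ESC, with 11.8-fold and 10.0-fold peaks at day 6. At Id2, chr12:25098249-25099847 was bound in all 10 libraries, while the distal chr12:25124170-25125085 had 25.6-fold and 6.3-fold peaks at day 3, 4.25-fold and 5.37-fold peaks in ESC and none in 2i. It lies within the upstream acetylated region just named.

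Of the 133 H3K27ac regions in the 8 windows, 82 were present in MEF (61.7%, against 56.5% of all 106528 regions), 47 at day 3 (35.3% against 25.4%), 24 at day 6 (18% against 12.1%), 40 at day 9 (30.1% against 29.7%) and 74 in ESC (55.6% against 45.8%). In these windows, 21 of 133 H3K27ac regions (15.8%) were present at all 5 stages, where 9.02% of all regions were, and Lifr and Bmp4 had none of them. Regions present in MEF and absent in ESC numbered 44 (33.1%, against 39.4% of all), and those absent in MEF and present in ESC 37 (27.8%, against 29.6%). Acetylation at both end points with none at day 6 and day 9 was found for 6 regions (4.51%, against 1.97%), of which Lifr had 2 and Il6st, Stat3, Socs3 and Bmp4 1 each. These counts depend on the length of the lists. With equally long lists there were 8 regions at all 5 stages, 17 present in MEF and absent in ESC, and 10 of the reverse. Regions at both end points with none at day 6 and day 9 then numbered 2. The shares of all regions under that setting were not computed. Regions absent at day 3 and present at day 6 numbered 0 of 133, where 0.43% of all regions were such, and this count lies at the background. Regions acetylated at day 9 and absent in both MEF and ESC numbered 6 (4.51% against 7.09%), with 3 at Stat3, 2 at Lifr and 1 at Id2. ESC alone had 31 (23.3% against 21.8%) and MEF alone 27 (20.3% against 29.7%). KLF4 regions present numbered 37 at day 3 (50.7% against 48.1%), 30 at day 6 (41.1% against 40.2%), 28 at day 9 (38.4% against 51.5%), 34 in ESC (46.6% against 43.4%) and 37 in 2i (50.7% against 40.5%). Of these regions, 11 of 73 (15.1%) were present at all 5 stages against 11.3% of all, 7 were present at day 3 and absent in ESC (9.59% against 19.4%), and 11 the reverse (15.1% against 15.6%). The 7 became 17 without the ESC library of batch EA-2643 and the 11 became 18 without that of EA-2697, so neither count can be set against its share of all regions. At a q-value of at most 0.01, 3 were present at all 5 stages. At some stage 46 of the 73 had a peak in 1 of 2 libraries, so these classes leave most KLF4 regions undecided. These shares were not tested.

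**Figure D4:**
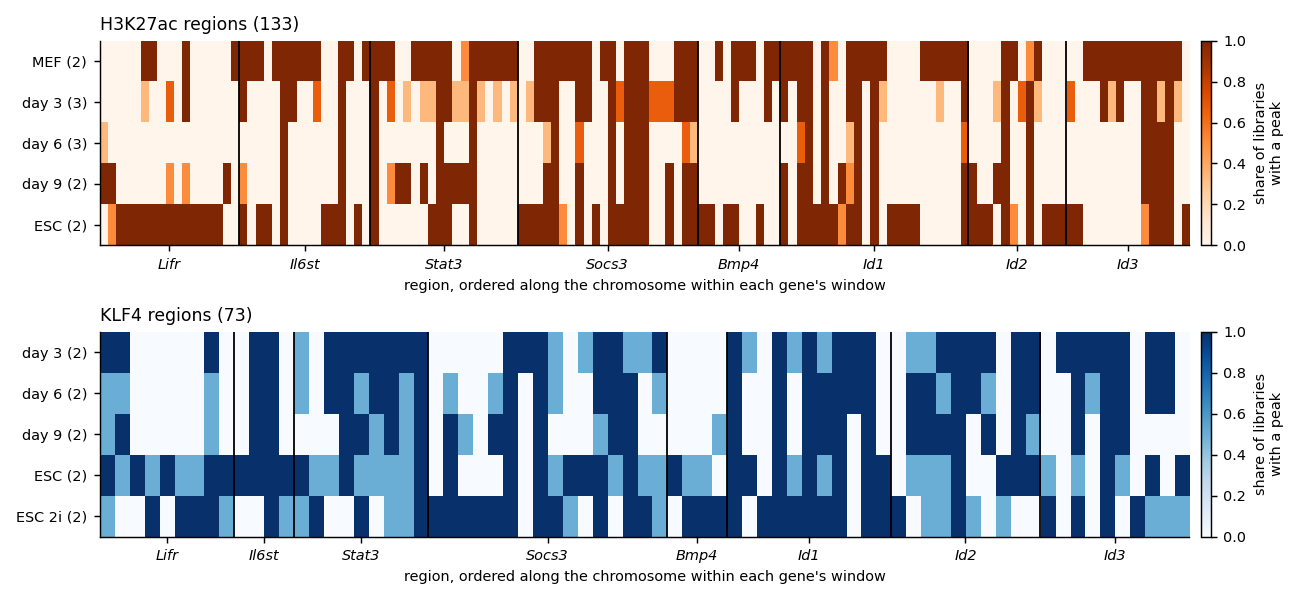
Share of a stage's libraries (colour) with a peak over each H3K27ac region (above) and each KLF4 region (below), with stages and their number of libraries on the y axis and regions in chromosome order within each gene's window on the x axis. Lifr shows a block of H3K27ac regions filled in ESC and mostly empty before, and Id1 shows KLF4 regions filled at every stage.

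KLF4 coverage of the 8 windows did not pass the test for any member in any of 3 comparisons, although some calls were made under other settings. On simulated data with the spread of these libraries, 100 windows were changed at each of the sizes tried for ESC against day 3. This test recovered none of these changes. In the data it called 975 windows in this comparison, so the simulation does not give the power of the test as run. A count of 0 called still says little about the members, given the standard errors below. Batch and stage cannot be told apart in any of the 3 comparisons. Between ESC and day 3, 0 members were called (limma; 2 of 8 at an unadjusted p under 0.05), beside 0.737% of 18857 windows called higher and 4.43% lower. After centring, 1767 windows were higher and 1187 lower in place of 139 and 836, and 0 were called when the EA-3702 library of day 3 or the EA-2697 library of ESC was left out. The largest difference was at Stat3, with 6.93 and 4.12 kb under KLF4 peaks at day 3 and 0.649 and 2.44 kb in ESC. The day 3 libraries both lay above the ESC libraries, and the log2 difference was -1.89 ± 0.55 (limma adjusted p = 0.0619), which is -1.42 relative to the median window. Stat3 was called at a pseudocount of 800 bp, with equally long lists, after centring and when the EA-2643 library of ESC was left out. Id3 followed with 6.64 and 2.08 kb at day 3 and 1.06 and 1.61 kb in ESC (-1.39 ± 0.52, limma adjusted p = 0.13) and was called when the DG-4040 library of day 3 was left out. Between ESC and day 9, 0 members were called (0 at an unadjusted p under 0.05), beside 0% of windows higher and 0.0053% lower, and after centring Socs3 was. In 2i against ESC, 0 were called (0 at an unadjusted p under 0.05), beside 0% of windows in either direction. Socs3 had 2.54 and 4.21 kb in ESC and 4.84 and 6.27 kb in 2i, without overlap (0.71 ± 0.47, limma adjusted p = 0.782). The standard errors of the 8 members were 0.47 to 0.71, so a p above the threshold does not show that stages were alike.

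**Figure D5:**
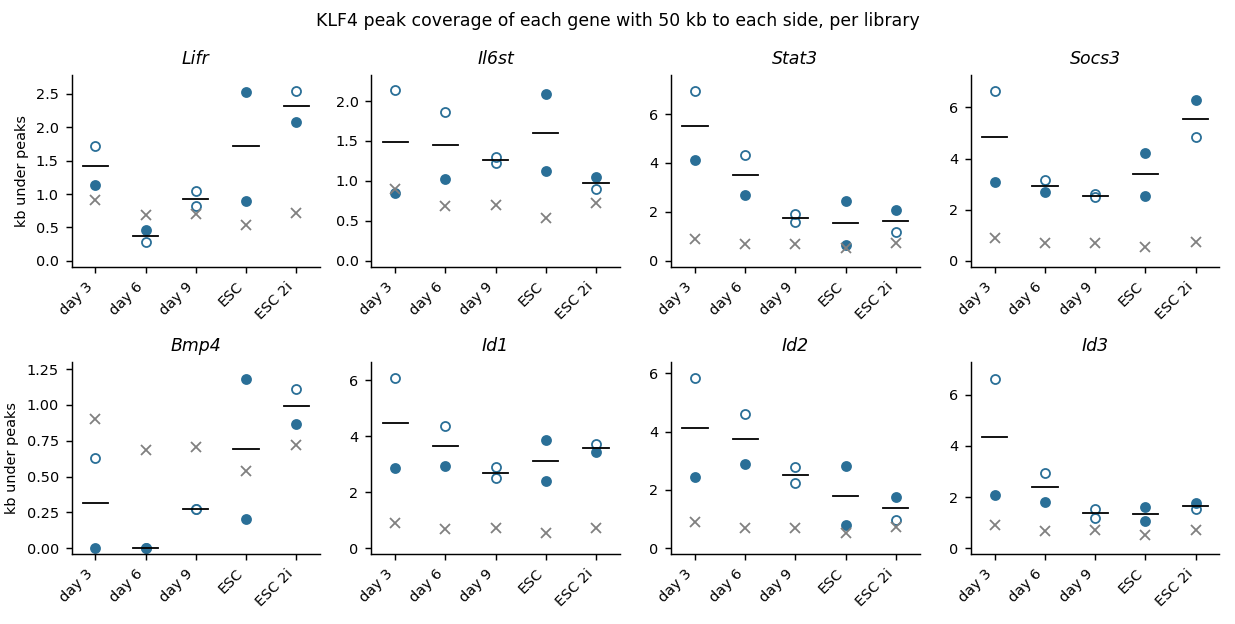
Length under KLF4 peaks (kb, y axis) in the window of each gene at 5 stages (x axis). Circles are single libraries, open for batch EA-3702 and filled for the other batches, black lines are stage means, and grey crosses are the stage mean over the libraries of their median over all windows. Libraries of 1 stage differ by up to several kb, as at Id3 on day 3 with 6.64 and 2.08 kb, and Stat3 is highest at day 3.

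Where KLF4 was bound in the 8 windows, it mostly lay in H3K27ac regions present at the same stage. These regions are merged over stages, so an overlap does not show an H3K27ac peak of that stage at the KLF4 site itself. At chr11:117951125-117951474 near Socs3, the KLF4 peak of day 9 library EA-3702-1 lay 17.926 to 18.150 kb past the start. The nearest H3K27ac peak of day 9 library EA-3702-1 lay at 18.939 to 19.970 kb, and this region is counted as overlapping. Of the KLF4 regions present, 32 of 37 at day 3 overlapped an H3K27ac region present at day 3 (86.5%, exact 95% interval 71.2 to 95.5, counting error only), where 66.1% of all KLF4 regions of day 3 did. At day 6 the share was 27 of 30 (90%, 73.5 to 97.9, against 52.8% of all), at day 9 28 of 28 (100%, 87.7 to 100, against 79.2%), and in ESC 27 of 34 (79.4%, 62.1 to 91.3, against 77.3%). Day 3 KLF4 regions overlapped an H3K27ac region present in MEF in 31 of 37 cases (83.8%, 68 to 93.8, against 54.5% of all). Regions of 1 window are not independent, and these differences were not tested. The exceptions in ESC included 2 of 3 regions at Id3 and the 1 region at Bmp4. Seen from the acetylation, 13 of the 21 H3K27ac regions present at all 5 stages held a KLF4 region present at day 3 (61.9%, against 54.6% of all such regions), and 13 held one present in ESC (against 50.6%). Of the 27 regions acetylated in MEF alone, 0 held a KLF4 region present at day 3 (0.84% of all). Of the 31 regions acetylated in ESC alone, 3 held a KLF4 region present in ESC (9.68%, against 9.88%) and 5 held a KLF4 region present in ESC or 2i (16.1%, against 14.2%).

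In 2i against serum ESC, 10 of the 73 KLF4 regions were present in ESC and absent in 2i (13.7%, against 8.66% of all KLF4 regions), and 8 the reverse (11%, against 5.28%). The first set held the Stat3 promoter region, 2 regions each at Lifr, Il6st and Id2, and 1 each at Socs3, Bmp4 and Id1. The second held 4 regions at Socs3 and 1 each at Bmp4, Id1, Id2 and Id3. With the 2i library whose peak names lack 2i taken alone, the numbers were 16 and 9, and with the other 2i library alone 12 and 9. The ESC libraries came from other batches than the 2i libraries, so that batch and medium cannot be told apart here either.

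Other genes of the LIF route, 30 in a list without the 8 members, were split between MEF and ESC, with 8 higher and 7 lower in H3K27ac coverage, beside 26.8% and 32.8% of all windows, and a median of -0.06 (log2; -0.10 for all windows). Tfcp2l1, a transcription factor gene downstream of STAT3 in ESC, was higher by 1.81 ± 0.40 (limma adjusted p = 0.00266), and so were Pias3, an inhibitor of STAT3 (1.74 ± 0.22), and Gbx2, a homeobox gene (1.65 ± 0.10). Jak1, the kinase bound to gp130, was lower by 3.28 on the log2 scale (-3.28 ± 0.30, limma adjusted p = 5.10e-06), as was Osmr (-2.94 ± 0.29), the receptor chain for oncostatin M that also pairs with gp130. Stat5a was lower too (-1.94 ± 0.19), in a window that overlaps that of Stat3. At day 9 against day 6, 30 of 30 were higher, with Cish, another SOCS-family gene, at 3.13 ± 0.36, where 87.4% of all windows were higher. Against day 9, ESC had 12 higher, led by Bcl3 (2.26 ± 0.18), and 6 lower, led by Jak2 (-1.22 ± 0.31), beside 28.5% and 16.5% of all windows. For KLF4, 1 of 30 was lower in ESC than at day 3, beside 4.43% of all windows, namely Il6ra, with -2.46 ± 0.61 (limma adjusted p = 0.0381), a call lost, as were all KLF4 calls of this comparison, without the day 3 library of batch EA-3702 or the ESC library of batch EA-2697.

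Of 27 other genes of the BMP route, 26 could be tested, and 4 were higher and 12 lower in ESC than in MEF, beside 26.8% and 32.8% of all windows, with a median of -0.53 (-0.10 for all windows). The ligand genes Bmp7 (2.43 ± 0.37, limma adjusted p = 0.000264), Bmp5 (1.06 ± 0.32) and Bmp2 (0.99 ± 0.14) were higher. The type I receptor gene Bmpr1b (-2.59 ± 0.28, limma adjusted p = 2.16e-05), the signal transducer Smad5 (-2.17 ± 0.20) and the ubiquitin ligase gene Smurf1 (-1.98 ± 0.40) were lower. In ESC against day 9, 4 were higher, with the inhibitor Smad7 first (1.89 ± 0.21), and 8 lower, with the ligand Bmp6 first (-2.43 ± 0.33), beside 28.5% and 16.5% of all windows. For KLF4 in ESC against day 3, 3 of 26 were lower, beside 4.43% of all windows, namely Bmp6 (-2.58 ± 0.62, limma adjusted p = 0.035), the BMP antagonist Grem1 (-2.30 ± 0.52) and the receptor gene Acvr1 (-2.15 ± 0.51), all of them lost without either of the same libraries.

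The windows whose H3K27ac coverage ran most like that of each member over the 12 libraries were Gm10037 (Pearson r 0.997) and Zfp273 (0.994) for Lifr, Cpe (0.99) and Trps1 for Il6st, Col6a2 (0.992) and Styk1 for Stat3, Ctdsp2 (0.99) and Thada for Socs3, Zfp90 (0.991) and Fhod3 for Bmp4, Grk5 (0.992) and Rad51b for Id1, Ascl4 (0.974) and Rtcb for Id2, and Phka2 (0.982) and Ccar2 for Id3. These r values are descriptions over 12 libraries that share the length of their lists. Many windows come close: 3033 reached an r of 0.9 with Lifr, 491 with Bmp4 and 96 with Id2.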

How the data were processed

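Crosslinked chromatin was immunoprecipitated and sequenced, per the labels' protocols. The submitters' processing notes name cutadapt 1.8.1, Bowtie2 2.2.5, deepTools 2.3.6, MACS2 2.1.1 and mm10, and settings and controls are not given in the sources used here. The authors deposited 1 peak list per library, giving every peak a score, its fold (a ratio), a −log10 p-value and a −log10 q-value. These values are the authors' own and order, filter or describe the peaks of 1 list. Where folds or ranks of several lists stand side by side, no change is read from them. The deposited lists hold no read counts, so depth is unknown. The 13 input libraries were not analysed here.

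The 8 genes and the lists of pathway genes were chosen with earlier results of these data known. Gene coordinates, names and starts came from RefSeq tables (GRCm38.p6, the sequence of mm10). A region was a merged peak found in at least 2 libraries of a stage, merged over the stages of a mark. It was present with peaks in at least 2 libraries, absent with 0 and otherwise undecided, and an overlap was at least 1 bp. Covered length per window was tested with limma 3.58.1 (R 4.3.3, trended variance, Benjamini-Hochberg) on log2(bp + 1000) for H3K27ac and log2(bp + 200) for KLF4, all stages of a mark in 1 fit, for windows with a peak in at least 2 libraries. Log2 differences are on this scale and understate changes of low windows. Tested on simulated data, the fit recovered nearly all of the larger and some of the smaller added changes for H3K27ac, and none of either size for KLF4. Far fewer windows were changed there than the fit called in the data, so these shares do not give its power here. All 8 genes, KLF4 regions by position and at most 3 genes per direction of each list were to be named. The KLF4 and H3K27ac regions given were picked for their width, position or presence after their values were seen. Replicates are biological per the series' design text, with 2 or 3 a stage. The p-values rest on 1 spread shared by all stages of a mark and moderated over windows, not on that of the 2 stages compared alone.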

Additional observations from a re-analysis of the deposited data

How the results depend on the processing

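Each called difference of a member was recomputed under other pseudocounts, windows, filters and scalings and without single libraries. Of 637 such values for 29 calls, 578 kept direction and call, 50 kept the direction alone and 9 reversed. Between ESC and MEF, the calls of Lifr, Il6st, Stat3, Bmp4 and Id3 held under every alternative run, and that of Id1 was lost without any 1 of the 4 libraries of these groups, so that leaving out 1 library gave 5 to 6 members (6 with all libraries). Equally long lists, centring and 10 kb windows each gave 7, where the added call was Socs3 or Id2.

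The number of members called at day 3 against MEF (6) was 3 with equally long lists, and Lifr reversed to 0.38 there. It was 4 with 10 kb windows and 5 after centring (Il6st, Socs3, Bmp4, Id1 and Id2). With batch as a block it was 7, where the added call was Socs3 or Id2. At day 6 against day 3 (7) it was 3 with equally long lists, 4 after centring and 4 with 10 kb windows. At day 9 against day 6 (6) it was 2 with equally long lists, and in ESC against day 9 (4) it was 7 with equally long lists, after centring and with 10 kb windows. Centring reversed Stat3 (0.14), Id1 (0.51) and Id3 (0.28) at day 3 against MEF, and Stat3 (-0.24), Socs3 (-0.09), Id1 (-0.57), Id2 (-0.82) and Id3 (-0.70) at day 9 against day 6. Leaving out 1 library gave 4 to 7, 6 to 7, 3 to 7 and 4 to 7 members in these comparisons, with 3 at day 9 without its second library and 7 in ESC against day 9 without the day 6 library of batch EA-3702. With batch as a block 5 members were called at day 9 against day 6 (Id3 lost, 0.39, limma adjusted p = 0.104) and 5 in ESC against day 9. For KLF4 in ESC against day 3 (0 called), Stat3 was the 1 member called at a pseudocount of 800 bp, with equally long lists and after centring, and leaving out 1 library gave 0 to 1 (Id3 when the DG-4040 library of day 3 was out, Stat3 when the EA-2643 library of ESC was). In ESC against day 9, Socs3 was the 1 member called after centring. The causes were not tested.

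Among regions, equally long lists left 10 of 37 absent in MEF and present in ESC (23 at a q-value of at most 0.01), 17 of 44 of the reverse and 8 of 21 at all stages. They also left 2 of the 6 at both end points with none at day 6 and day 9. KLF4 regions at all 5 stages fell from 11 to 6 and, at that q-value, to 3, and those gained in ESC from 11 to 4. Leaving out 1 library gave 7 to 17 KLF4 regions present at day 3 and absent in ESC (17 without the ESC library of batch EA-2643) and 11 to 18 of the reverse (18 without that of EA-2697). The acetylated share is that of KLF4 regions overlapping an H3K27ac region present at the stage. With equally long lists it was 65.5% for day 3 KLF4 in MEF regions, 76.9% at day 9 and 53.8% in ESC.

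Over all windows, KLF4 calls in ESC against day 3 (975) were 2954 after centring, 1497 with equally long lists, 521 with no filter and 0 at the q-value limit. In ESC against day 9 (1) they were 1666, 746 and 244 under the first 3 of these and 56 at a pseudocount of 800 bp, and in 2i against ESC (0) 107 with no filter, 15 after centring and 1 at that pseudocount. H3K27ac calls at day 6 against day 3 (8103) were 2532 with equally long lists and 5050 with 10 kb windows. Leaving out 1 library gave 0 to 1804 KLF4 calls in ESC against day 3, 0 to 300 in ESC against day 9, 5502 H3K27ac calls or 5602 in ESC against day 9 (8893) without 1 ESC library, and 5369 at day 6 against day 3 without 1 day 6 library of batch DG-3458. A batch block could not be estimated for KLF4.

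Same-numbered libraries of batch DG-3458 share only a number and did not deviate together (correlations -0.0094 to 0.0592). With the number as a replicate block, 7 members were called in each of ESC against MEF, day 3 against MEF and day 6 against day 3, and 7 in each without it. The block moved the windows called from 14682 to 14861, from 16106 to 16219 and from 10992 to 11192. With the 2 day 6 numbers swapped to follow the names inside the files, an alternative added after the data were seen, 6, 7 and 7 members were called. The leave-one-out counts of regions, the other settings for the acetylated shares and the batch DG-3458 fit without the number were also added then. Depth is unknown, and 2 or 3 libraries a stage limit precision.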
